A study of Mus musculus with 16 samples.

Results

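Voltage-gated sodium and calcium channels were followed through the detection calls of all array probe sets assigned to a single gene whose symbol starts with Scn and a digit, Cacna, Cacnb or Cacng. The rule gave 85 probe sets (groups of short probes that together read the transcripts of a gene) of the 45101 on the array, for 35 of the 18194 genes that have a probe set of their own. Sodium channel genes accounted for 30 probe sets of 11 genes and calcium channel genes for 55 probe sets of 24 genes, and 26 of the 35 genes had more than 1 probe set. The symbols came from the platform annotation, and all 35 were found in the RefSeq annotation of the mouse assembly GRCm38.p6.

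RNA was profiled on 16 Affymetrix arrays from mice with and without a mutation in a brain isoform of PGC1α, a transcriptional coactivator. There were 8 groups of 2 arrays, SINE KO and WT, female and male, each as cerebellum and as the rest of the brain. KO mice were homozygous for a CRISPR/Cas9 deletion of 4 bp in the SINE exon (a repeat-derived exon) of a fusion transcript of Pgc1α (Ppargc1a) that is made in the brain. The transcript itself remains, and the study infers loss of its protein from the reading frame and from Western blots of brain. All KO mice descend from 1 founder on C57BL/6J that was bred to WT mice for at least 2 generations, and WT mice were littermates of the same age, matched by litter as far as possible. Age at sampling is not given in the sources used here. Remnants of brain stem were removed by gross dissection before the brain was divided, and the rest of the brain is a mixture of regions. Of 25 probe sets of hindbrain markers, 8% to 60% were detected on each cerebellum array and 4% to 28% on each rest-of-brain array. The methods call the 2 samples of a group independent specimens, and the labels do not say whether cerebellum and rest-of-brain arrays with the same number come from 1 animal.

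Voltage-gated sodium channels carry the rising phase of the action potential. Their pore is an α subunit, and small β subunits with a single membrane span adjust gating, surface number and adhesion. Voltage-gated calcium channels convert depolarization into calcium entry, which triggers transmitter release, shapes firing and reaches the nucleus. Their pore is an α1 subunit that is joined by a cytoplasmic β subunit and an extracellular, membrane-anchored α2δ subunit. Of the γ subunits, some belong to the muscle calcium channel, and others, the TARPs, escort AMPA-type glutamate receptors to the synapse. In the cerebellum, P/Q-type calcium channels and resurgent sodium current are textbook features of Purkinje cells.

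The deposited values are not intensities. They take 5 distinct numbers, which were read as levels. Level 2 was taken to mean detected and level 1 marginal, and anything lower counted as undetected, a reading that no source used here states. Genes seen in all groups can thus differ in level unseen, and no fold change can be given. In these bulk samples, fewer cells of a type and less RNA per cell cannot be told apart. All 5 probe sets of Ppargc1a and every Actb and Gapdh probe set were detected on all 16 arrays, so the calls do not check the genotype. Between 25517 and 28155 probe sets were detected per array, lowest on KO male cerebellum replicate 2. WT female cerebellum replicate 2 stood apart from the other cerebellum arrays. It detected 59.1% of 22 probe sets of forebrain markers, against 31.8% to 36.4% on the other 7 cerebellum arrays and 81.8% to 86.4% in the rest of the brain. It also detected 68.2% of the granule cell probe sets, against 86.4% to 95.5% on the other 7. The main brain part counts are given with and without it.

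Over the 16 arrays, 40 of the 85 channel probe sets were detected on every array (47.1%, against 48% of all 45101), 31 on some (36.5% against 25%) and 14 on none (16.5% against 27%). Taken by gene, so that a single detected probe set is enough, 23 genes were detected on all 16 arrays, 8 on some and 4 on none. Probe sets of a gene often differed. Of the 26 genes with several probe sets, 23 had probe sets detected on different numbers of arrays, and 4 (Cacna1b, Cacna1e, Cacna2d2 and Scn8a) had at least 1 on all 16 arrays and 1 on no array. Marginal values were few, 20 or 1.47% of the channel values, and 7 channel values were at level -2 and 1 at level -1.

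**Figure D1:**
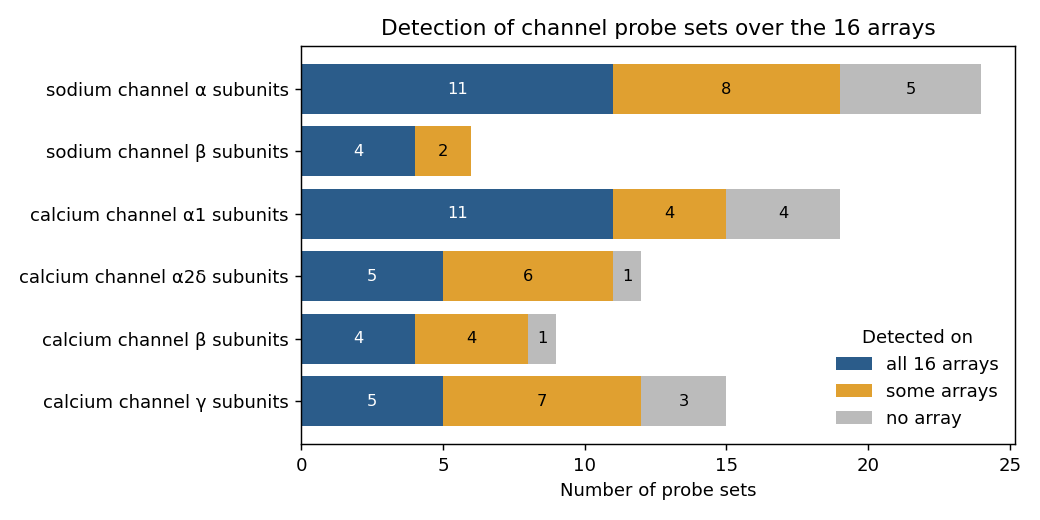
Number of probe sets (horizontal axis) in each channel family (vertical axis) detected on all 16 arrays, on some arrays or on no array. In the pore-forming families 11 of 24 sodium channel α and 11 of 19 calcium channel α1 probe sets were detected on every array.

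Among the sodium channel α subunits, 11 of 24 probe sets were detected on all 16 arrays, 8 on some and 5 on none. The α subunits of central neurons made up the first set. Scn1a, the main sodium channel of many inhibitory neurons, had all 3 probe sets on every array. Scn8a, a channel of the axon initial segment and nodes of Ranvier, had 4 of 5, Scn2a, a channel of excitatory neurons, 3 of 4, and Scn3a, best known from the embryonic brain, 1 of 2. The 3 genes known from sensory neurons that signal pain did not share a pattern. Scn10a, with 1 probe set, was detected on no array. Scn11a, also with 1 probe set, was detected on 15 arrays and was marginal on WT female rest-of-brain replicate 1. Scn9a had 5 probe sets, of which 3 were detected on some arrays and 2 on none. By comparison, a list of 11 probe sets of other sensory ganglion genes had 6 on no array, 5 on some and none on all 16. Scn7a, a sodium-sensing channel that is not opened by voltage in the usual way, was detected on all 16 arrays by at least 1 of its 3 probe sets, although no single one was.

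A cluster of 5 of these genes lies on chromosome 2 in GRCm38.p6, in the order Scn3a (chr2:65457118-65567591), Scn2a (chr2:65620764-65767447), Scn1a (chr2:66270781-66440837), Scn9a (chr2:66480080-66635114) and Scn7a (chr2:66673426-66784910). The first 3 had at least 1 probe set on all 16 arrays, and Scn9a and Scn7a had none. On chromosome 9 the undetected Scn10a (chr9:119608456-119719322) borders Scn11a (chr9:119753763-119825456), which was detected on 15 arrays.

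The sodium channel β subunits were read by 6 probe sets, of which 4 were on all 16 arrays and 2 on some. Scn4b, whose protein is a candidate blocker behind resurgent current, was detected on every array by its 1 probe set, Scn2b by 2 of 3 and Scn3b by 1 of 2.

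For the calcium channel α1 subunits, 11 of 19 probe sets were detected on all arrays, 4 on some and 4 on none. P/Q-type Cacna1a and N-type Cacna1b, the channels of presynaptic terminals, had 3 of 4 probe sets each on every array. L-type Cacna1c had both of its probe sets on every array, and L-type Cacna1d had 1 of 2. R-type Cacna1e had 1 of 2 and T-type Cacna1g its only one. Cacna1h, the other T-type channel measured, had 1 probe set on 15 arrays, all but KO male cerebellum replicate 2, and 1 on 3 arrays. Cacna1s, the L-type channel of skeletal muscle, and Cacna1f, that of photoreceptor terminals, were detected on no array. In the same samples, of 17 probe sets of other skeletal muscle genes, 10 were detected on no array, 6 on some and 1, of Ryr1, on all 16. Of 8 probe sets of photoreceptor genes, 6 were detected on no array and 2 on some.

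Among the accessory calcium channel subunits, Cacnb4, the β subunit mutated in the lethargic mouse, had all 3 probe sets on every array. Cacna2d1 had 3 of 5, Cacna2d2 1 of 3 and Cacna2d3 its only one, the first pair being the binding sites of gabapentin. Cacna2d4, which in the retina serves photoreceptor terminals, was detected on 11 arrays by any of its 3 probe sets. Cacnb2 had 1 of 2 on every array, and Cacnb1, the β subunit of the muscle channel that is also made in brain, had none of 4, 1 of them being detected on 15 arrays.

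The γ subunits parted by gene. Of the TARP genes, Cacng2, which encodes stargazin, had 2 of 3 probe sets on every array, and Cacng4, Cacng5 and Cacng7 had 1 of 2 each. TARP genes Cacng3 and Cacng8 were detected on 13 and 2 arrays. Cacng1, the γ subunit of the skeletal muscle channel, was detected on none, and its relative Cacng6 on 9. The genes of 3 of them adjoin on chromosome 7, Cacng7 (chr7:3332027-3368221), Cacng8 (chr7:3394042-3416266) and Cacng6 (chr7:3423588-3435667), and differed in detection, with 16, 2 and 9 arrays by any probe set.

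Cerebellum arrays detected fewer channel probe sets than rest-of-brain arrays. The 4 KO cerebellum arrays detected 51 and 54 (female) and 52 and 47 (male) of the 85, and the 4 WT cerebellum arrays 49 and 56 (female) and 55 and 56 (male). The 4 KO rest-of-brain arrays detected 60 and 59 (female) and 60 and 58 (male), and the 4 WT rest-of-brain arrays 56 and 60 (female) and 56 and 59 (male). The brain parts met at 56 probe sets, a count shared by 2 WT cerebellum and 2 WT rest-of-brain arrays, and in KO mice they did not overlap. Counts over all probe sets did overlap in KO mice, at 25517 to 27476 in the cerebellum and 26893 to 27534 in the rest of the brain. As a share, 61.8% of channel probe sets were detected on cerebellum arrays and 68.8% on rest-of-brain arrays, against 59.1% and 60.3% of all probe sets. Without WT female cerebellum replicate 2 the cerebellum share was 61.2%. In KO mice the channel shares were 60% and 69.7%, against 58.8% and 60.3% of all probe sets. In WT mice they were 63.5% and 67.9%, against 59.4% and 60.2%. The difference between the genotypes in this gap was not tested.

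**Figure D2:**
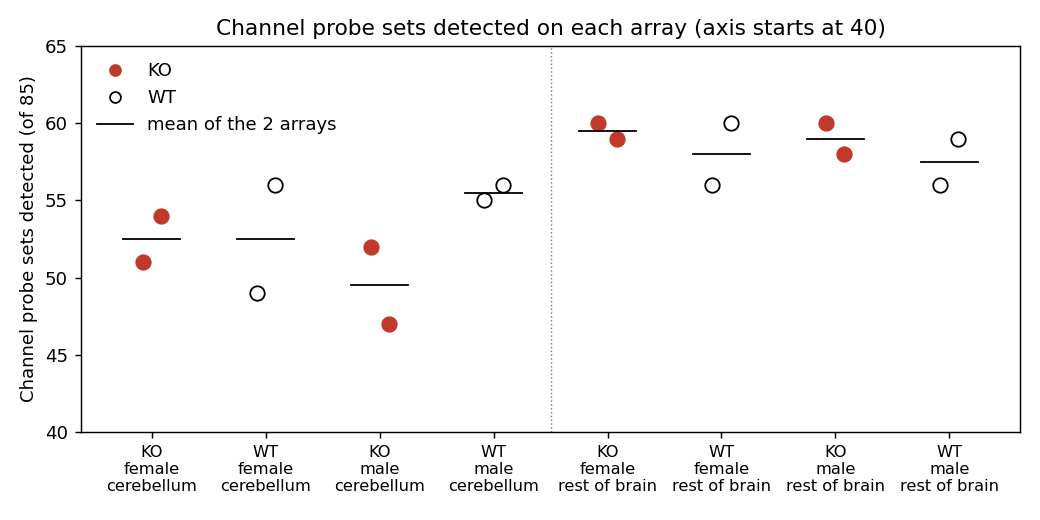
Number of the 85 channel probe sets detected on each array (vertical axis, which starts at 40) for the 8 groups (horizontal axis), 1 point per array, filled for KO and open for WT, with a line at the mean of the 2 arrays. Cerebellum arrays lie between 47 and 56 and rest-of-brain arrays between 56 and 60.

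Of the 85 probe sets, 10 were detected on more cerebellum arrays, 20 on more rest-of-brain arrays and 55 on equal numbers. The 10 and 20 were among the 31 channel probe sets detected on some arrays. Over the 11269 probe sets of the array detected on some arrays, 38.6% were detected on more cerebellum and 50.7% on more rest-of-brain arrays. Without WT female cerebellum replicate 2, and by the share of arrays, 11 were detected more often in the cerebellum and 20 less often, against 43.4% and 53.9% over those 11269. All 8 rest-of-brain arrays and fewer cerebellum arrays detected 12 channel probe sets, and 1, of Scn11a, was detected on all 8 cerebellum arrays and fewer of the others. Of the 12, 1 probe set each of Cacna1h, Cacnb1, Cacna2d1 and Scn7a was missed by a single cerebellum array. The share of all probe sets under this rule was not counted, so nothing is drawn from the 12 and 1. By a stricter rule, 115 probe sets of the whole array were detected on all 8 rest-of-brain arrays and no cerebellum array, and 25 the other way. No channel probe set met it. By family, the numbers detected on more and on fewer cerebellum arrays were 3 and 4 for sodium channel α, 0 and 2 for sodium channel β, 1 and 3 for α1, 2 and 4 for α2δ, 0 and 4 for β and 4 and 3 for γ subunits.

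No channel probe set passed Fisher's exact test (two-sided, 8 arrays against 8, Benjamini-Hochberg over all 45101 probe sets) between the brain parts, and neither did any other (0%). Unadjusted, 5 channel probe sets had an exact p under 0.05, against 2.76% of all probe sets. This test would call a complete switch, detection on all arrays of one part and none of the other, only if 141 probe sets switched, and 140 did (0.31%), none of them a channel probe set. A second adjustment covered only the 3873 probe sets whose number of detecting arrays lets an exact p fall under 0.05, whatever the grouping. It included 9 channel probe sets and called 4, all detected on fewer cerebellum arrays, against 17.1% of the 3873 called in either direction and 11.5% in that direction. The 4 were 1 probe set of Scn3b, 1 of Cacna1d and 2 of Cacnb1. Without WT female cerebellum replicate 2 this adjustment included 13 channel probe sets and called the same 4. Of the 4760 probe sets it then covered, 20.7% were called in either direction and 626 were called as lower in the cerebellum. With any probe set of a gene counted, none of these genes was called. When arrays were permuted only within sex and genotype, Scn3b alone was called, and the other 3 probe sets had an adjusted p of 0.0565 (exact permutation test).

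Scn3b, whose β subunit adjusts sodium channel gating, had the lowest p of the channel probe sets. Its probe set 1426328_a_at was detected on none of the 4 KO cerebellum arrays and on WT female replicate 2 alone among the 4 WT cerebellum arrays, against all 4 KO and all 4 WT arrays of the rest of the brain. The single cerebellum array that detected it is the one with more forebrain markers detected. Detection on 1 of 8 against 8 of 8 arrays had an adjusted p of 0.0138 over the 3873 probe sets (Fisher's exact test), and 0.00288 to 0.0162 with any 1 array left out. Leaving out WT female cerebellum replicate 2, the only cerebellum array that detected it, necessarily made it a complete switch. It was then called over all 45101 probe sets, one of 257 (0.57%) called, the same number as the complete switches without that array. The part of forebrain tissue markers in this result was not tested. The other probe set of Scn3b (chr9:40269216-40291618), 1435767_at, was detected on all 16 arrays, so by any probe set the gene was detected in both brain parts. The suffix _a_at marks probe sets shared by alternative transcripts of a gene.

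Cacna1d, the pore of an L-type channel that opens at modest depolarization and takes part in pacemaking, differed in 1 of 2 probe sets. Probe set 1428051_a_at was detected on none of the 4 KO cerebellum arrays, being marginal on KO male replicate 1, and on neither WT female but both WT male cerebellum arrays, against all 4 KO and all 4 WT arrays of the rest of the brain. In the KO mice the brain parts did not overlap, and in the WT mice the male arrays did. The counts of 2 of 8 against 8 of 8 had an adjusted p of 0.0409 (Fisher's exact test, 3873 probe sets; 0.0149 to 0.0477 with 1 array left out), and of 0.100 with marginal values counted as detected. Its other probe set, 1427974_s_at, was detected on all 16 arrays.

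Cacnb1, the β subunit that brings α1 subunits to the membrane, differed in 2 of 4 probe sets. Probe set 1426108_s_at was detected on no KO and no WT cerebellum array, against KO female replicate 1 and KO male replicate 2, and all 4 WT arrays, of the rest of the brain. It was marginal on KO female rest-of-brain replicate 2. Probe set 1440940_at was also detected on no KO and no WT cerebellum array, although marginal on WT female replicate 2, against all 4 KO and the female and male replicate 1 WT arrays of the rest of the brain, the other 2 WT arrays being marginal. Each was thus detected on 0 of 8 against 6 of 8 arrays, with an adjusted p of 0.0409 (Fisher's exact test, 3873 probe sets). Leaving out 1 array gave 0.0157 to 0.0476 for 1426108_s_at and 0.0155 to 0.0477 for 1440940_at. The KO and WT arrays in which each was seen in the rest of the brain were not the same, with 2 KO and 4 WT for the first and 4 KO and 2 WT for the other. Of the rest-of-brain arrays without detection, only KO male replicate 1, for 1426108_s_at, was not marginal. A further probe set, 1425777_at, was detected on 15 arrays, all but KO male cerebellum replicate 2, and 1451834_at on none.

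Both Cacna1d (chr14:30039941-30491156) and Cacnb1 (chr11:98001508-98023034) have a pair of promoter windows in the RefSeq table for GRCm38.p6. Each window covers 250 bases before to 50 after a start. Of the 35 genes, 27 had 37 windows in all, and Scn3b had no entry in the table. Capitals mark GGGCGG or CCGCCC, the GC box on either strand, and TATAAA or TTTATA, the TATA box on either strand, and neighbouring matches can share bases. All 4 windows lie on the minus strand, at chr14:30491107-30491406 and chr14:30353437-30353736 for Cacna1d and at chr11:98022578-98022877 and chr11:98018323-98018622 for Cacnb1, the one nearer the 5′ end of the gene first.
Cacna1d, outer window: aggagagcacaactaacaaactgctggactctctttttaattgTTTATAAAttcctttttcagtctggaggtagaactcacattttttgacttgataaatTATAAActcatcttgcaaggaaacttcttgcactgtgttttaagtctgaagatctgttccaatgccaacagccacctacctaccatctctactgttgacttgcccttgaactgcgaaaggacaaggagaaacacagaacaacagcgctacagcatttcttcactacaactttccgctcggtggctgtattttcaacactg
Cacna1d, inner window: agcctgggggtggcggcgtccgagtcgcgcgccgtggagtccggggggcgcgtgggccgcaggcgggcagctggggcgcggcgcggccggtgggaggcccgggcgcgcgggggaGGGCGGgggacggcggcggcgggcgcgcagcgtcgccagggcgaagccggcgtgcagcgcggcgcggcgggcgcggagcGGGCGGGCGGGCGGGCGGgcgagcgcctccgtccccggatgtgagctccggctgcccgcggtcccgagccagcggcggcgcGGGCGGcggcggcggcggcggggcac
Cacnb1, outer window: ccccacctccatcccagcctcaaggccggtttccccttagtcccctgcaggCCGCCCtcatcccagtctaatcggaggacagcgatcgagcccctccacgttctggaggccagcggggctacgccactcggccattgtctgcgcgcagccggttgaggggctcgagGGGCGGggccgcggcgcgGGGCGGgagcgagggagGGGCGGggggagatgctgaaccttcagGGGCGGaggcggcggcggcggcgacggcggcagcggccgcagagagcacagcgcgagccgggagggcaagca
Cacnb1, inner window: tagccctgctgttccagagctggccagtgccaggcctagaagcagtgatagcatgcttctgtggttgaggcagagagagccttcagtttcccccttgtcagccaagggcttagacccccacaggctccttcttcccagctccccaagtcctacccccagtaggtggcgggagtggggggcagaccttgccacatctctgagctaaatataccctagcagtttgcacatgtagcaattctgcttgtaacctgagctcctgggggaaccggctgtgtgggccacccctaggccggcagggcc
The windows of each gene were unlike in base composition. The outer Cacna1d window was 40.3% G and C with 4 CG pairs, no GC box and 3 TATA box matches, and the inner one 87.3% with 63 CG pairs, 6 GC boxes and no TATA box. The outer Cacnb1 window was 73.7% G and C with 34 CG pairs and 5 GC boxes, and the inner one 59.3% with 3 CG pairs and no GC box, and neither held a TATA box. Across the table, 35.7% of 32851 windows held a GC box and 13.6% a TATA box, against 14 (37.8%) and 2 (5.41%) of the 37 channel windows. The median was 57.3% G and C in the channel windows and 52.7% in all. These matches describe letters in the windows. The probe sets were not matched to a start, and a link between the windows and the calls was not tested.

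Cacng6, a γ subunit related to that of muscle, came next. Its probe set 1451811_at was detected on KO male replicate 1 and WT female replicate 1 in the cerebellum, against all 4 KO arrays and all but WT male replicate 1 of the WT arrays in the rest of the brain. With 2 of 8 against 7 of 8 arrays the unadjusted p was 0.0406 and the adjusted p 0.126 (Fisher's exact test, 3873 probe sets), and without WT male rest-of-brain replicate 1 the adjusted p was 0.0473. These 5 probe sets were the only ones of the channels to differ by 5 or more arrays, all lower in the cerebellum, a difference that 1.73% of all probe sets showed in that direction and 1.04% in the other.

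A further 5 probe sets were detected on all 8 rest-of-brain arrays and on 4 of 8 in the cerebellum. Probe set 1449999_a_at of Cacna2d1 was detected on both KO female, neither KO male and the replicate 2 WT cerebellum arrays of each sex. The Scn9a probe sets 1442809_at and 1442810_x_at, which the annotation gives to the same source sequence, were likewise detected on both KO female and neither KO male cerebellum array. In WT cerebellum 1442809_at was detected on female replicate 1 and male replicate 2, and 1442810_x_at on replicate 2 of each sex. Probe set 1452476_at of Cacnb2 was detected on KO male replicate 1 and on 3 of 4 WT cerebellum arrays, all but female replicate 1. For Scn7a, 1436043_at was detected on KO female replicate 2, KO male replicate 1 and replicate 2 of each WT sex. Each of these probe sets was called differently on the 2 arrays of more than 1 cerebellum group, and detection in the cerebellum overlapped with that in the rest of the brain.

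Fewer probe sets ran the other way, and none of them passed either adjustment. Cacng2 had the widest such difference, with 1453363_at on 6 of 8 cerebellum arrays against 2 of 8 in the rest of the brain. The arrays were 3 KO and 3 WT in the cerebellum, against KO female replicate 1 and KO male replicate 1 in the rest of the brain. Its other 2 probe sets were on all 16. Probe set 1445259_at of Scn2a was detected on 4 of 8 cerebellum and 2 of 8 rest-of-brain arrays, while the other 3 Scn2a probe sets were on all 16. The probe sets of Cacng5 (1426330_at), Cacng8 (1459579_at) and Cacna2d4 (1441084_at) were each detected on 2 cerebellum arrays and on none of the rest of the brain. Cacng8 is best known from the hippocampus, which lies in the rest of the brain, and neither of its probe sets was detected on a rest-of-brain array.

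**Figure D3:**
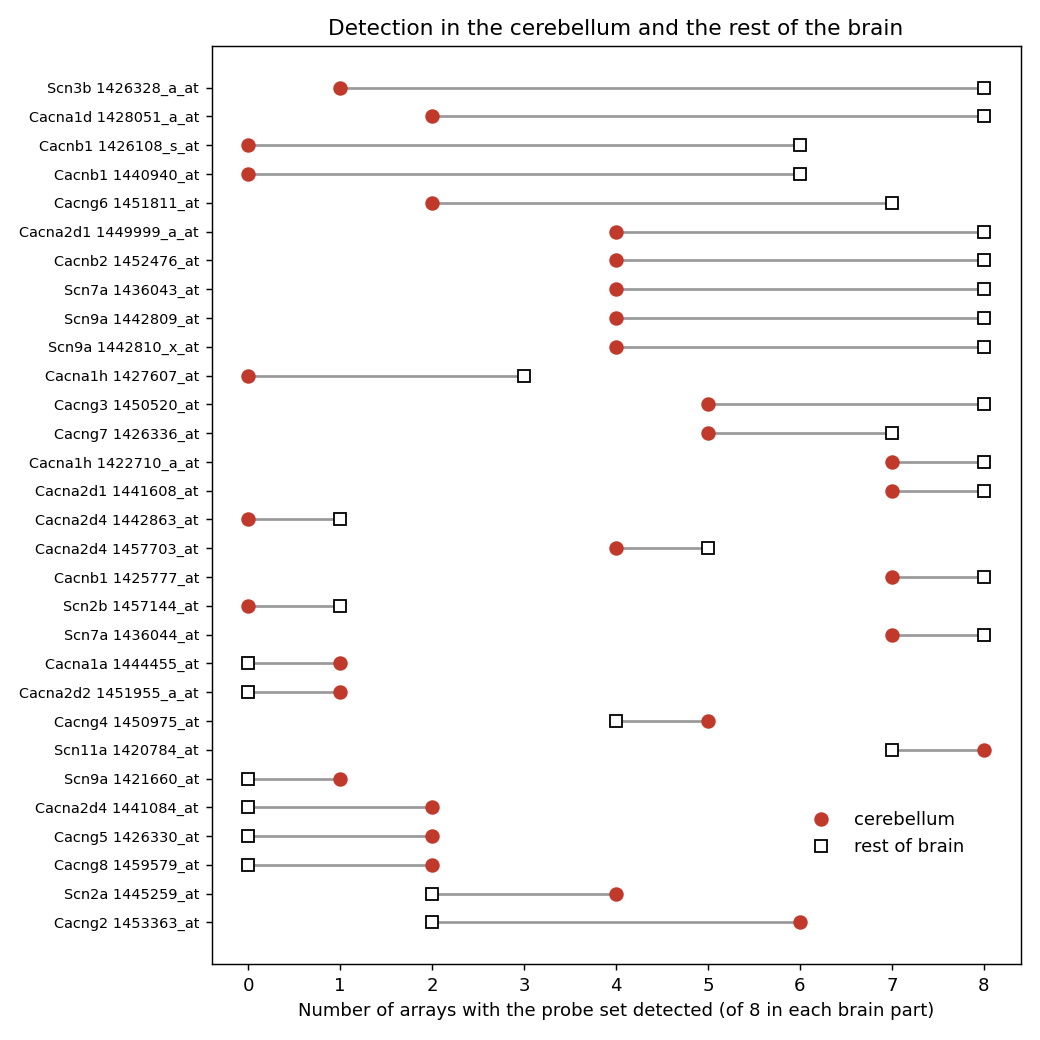
Number of arrays, of 8 in each brain part (horizontal axis), that detected each of the 30 channel probe sets whose numbers differed between the parts (vertical axis), with cerebellum as filled circles and rest of brain as open squares. Scn3b 1426328_a_at has the longest line, at 1 of 8 cerebellum and 8 of 8 rest-of-brain arrays, and Cacng2 1453363_at the longest in the other direction, at 6 and 2.

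Within a genotype, with 4 arrays against 4, 3 channel probe sets switched completely between the parts in KO mice and 1 in WT mice, each detected in the rest of the brain alone. The KO probe sets were those of Scn3b, Cacna1d and Cacnb1 (1440940_at), among 1.25% of all probe sets that switched, and the WT one was Cacnb1 1426108_s_at, among 0.585%. A complete switch of 4 against 4 has an exact p of 0.0286, and none passed adjustment in either genotype. The KO count was 5 without KO male cerebellum replicate 1, and the WT count 2 without either WT female cerebellum array. In pairs of 2 arrays against 2, switches to cerebellum alone and to rest of brain alone numbered 1 and 5 in KO females (3.02% of all probe sets switched), 0 and 6 in KO males (4.14%), 1 and 2 in WT females (2.48%) and 2 and 2 in WT males (3.09%). That KO and WT mice differ in these counts was not tested, and WT female cerebellum replicate 2 is one of the WT arrays.

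Between KO and WT mice the channel calls differed little. Channel probe sets were detected in 64.9% of KO and 65.7% of WT values, against 59.6% and 59.8% of all probe sets. Of the 85, 10 were detected on more KO arrays, 14 on more WT arrays and 61 on equal numbers. The 10 and 14 were among the 31 channel probe sets detected on some arrays. Over all probe sets detected on some arrays, 36.5% were on more KO and 41.4% on more WT arrays. No channel probe set differed by more than 2 of 8 arrays. None was called by Fisher's exact test over all probe sets (0%) or among the 9 of 3873 that could reach an exact p under 0.05 (0%), and none had an unadjusted p under 0.05 (0.0843% of all probe sets). Permutation within sex and brain part and the test with the replicate number as a block also called 0.

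Taken by brain part, the directions were unlike, though the difference was not tested. The counts by direction that follow are out of the 31 channel probe sets detected on some arrays. In the cerebellum, 5 channel probe sets were detected on more KO arrays and 13 on more WT arrays (27.5% and 34.3% of all probe sets detected on some arrays). For rest-of-brain arrays the counts were 8 on more KO and 3 on more WT arrays (26% and 24.7%). With 4 arrays against 4 there was no complete switch of a channel probe set in the cerebellum (0.0377% of all) or elsewhere (0.02%). In females the cerebellum had 6 on more KO and 6 on more WT arrays (24.8% and 20.6% of all probe sets detected on some arrays), and the rest of the brain 5 and 2 (17.3% and 18.9%). In males the cerebellum had 3 on more KO and 13 on more WT arrays (14.8% and 27.7%), and the rest of the brain 6 and 3 (19.5% and 16.2%). KO male cerebellum replicate 2 had the fewest probe sets detected of any array. The part of that array in the channel counts was not tested.

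With 2 arrays against 2, where the smallest exact p is 0.333, 2 channel probe sets switched between KO and WT in the female cerebellum (1.45% of all probe sets switched) and 2 in males (1.1%). In the rest of the brain 0 switched in females (0.94%) and 0 in males (1.02%). Leaving out any 1 of the 4 arrays, so that a group rests on a single array, gave 3 to 6 switches for female and 3 to 7 for male cerebellum. In the female cerebellum, 1445259_at of Scn2a was called on both arrays from KO mice and on neither from WT mice. The same probe set was on 1 of 2 KO and 1 of 2 WT arrays in the male cerebellum. In the rest of the brain it was on 0 of 2 KO and 1 of 2 WT arrays from females and on 1 of 2 KO and 0 of 2 WT arrays from males. Cacna2d4 had opposite calls, with 1441084_at on neither KO array and both WT arrays of the female cerebellum. It was detected on no other array of either genotype, being marginal on WT male cerebellum replicate 1.

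In the male cerebellum both switches were to WT alone. Cacna1d 1428051_a_at was detected on neither KO array, replicate 1 being marginal, and on both WT arrays. In the female cerebellum neither KO nor WT arrays detected it, and in the rest of the brain all KO and all WT arrays did. Cacna2d4 1457703_at was detected on neither KO and both WT arrays of the male cerebellum, and on 1 of 2 KO and 1 of 2 WT arrays of the female cerebellum. In the rest of the brain it was detected on both KO and both WT female arrays, and on 1 of 2 KO and 0 of 2 WT male arrays, the other KO array being marginal. In the other 3 combinations of sex and brain part neither probe set was detected on more WT than KO arrays.

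Arrays of 1 group also disagreed with each other. From 5 to 13 channel probe sets (5.88% to 15.3%) were called differently between the 2 arrays of 1 group, against 5.98% to 7.95% of all probe sets. The highest counts were 13 in the KO male and 13 in the WT female cerebellum (15.3% each), where 6.9% and 7.88% of all probe sets differed. Markers of hindbrain, 25 probe sets, were detected at 60% on both KO female cerebellum arrays, against 44% and 8% on WT female cerebellum replicates 1 and 2, and at 8% to 12% on the male cerebellum arrays. Their part in the calls of Scn2a and Cacna2d4 in the female cerebellum was not tested.

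**Figure D4:**
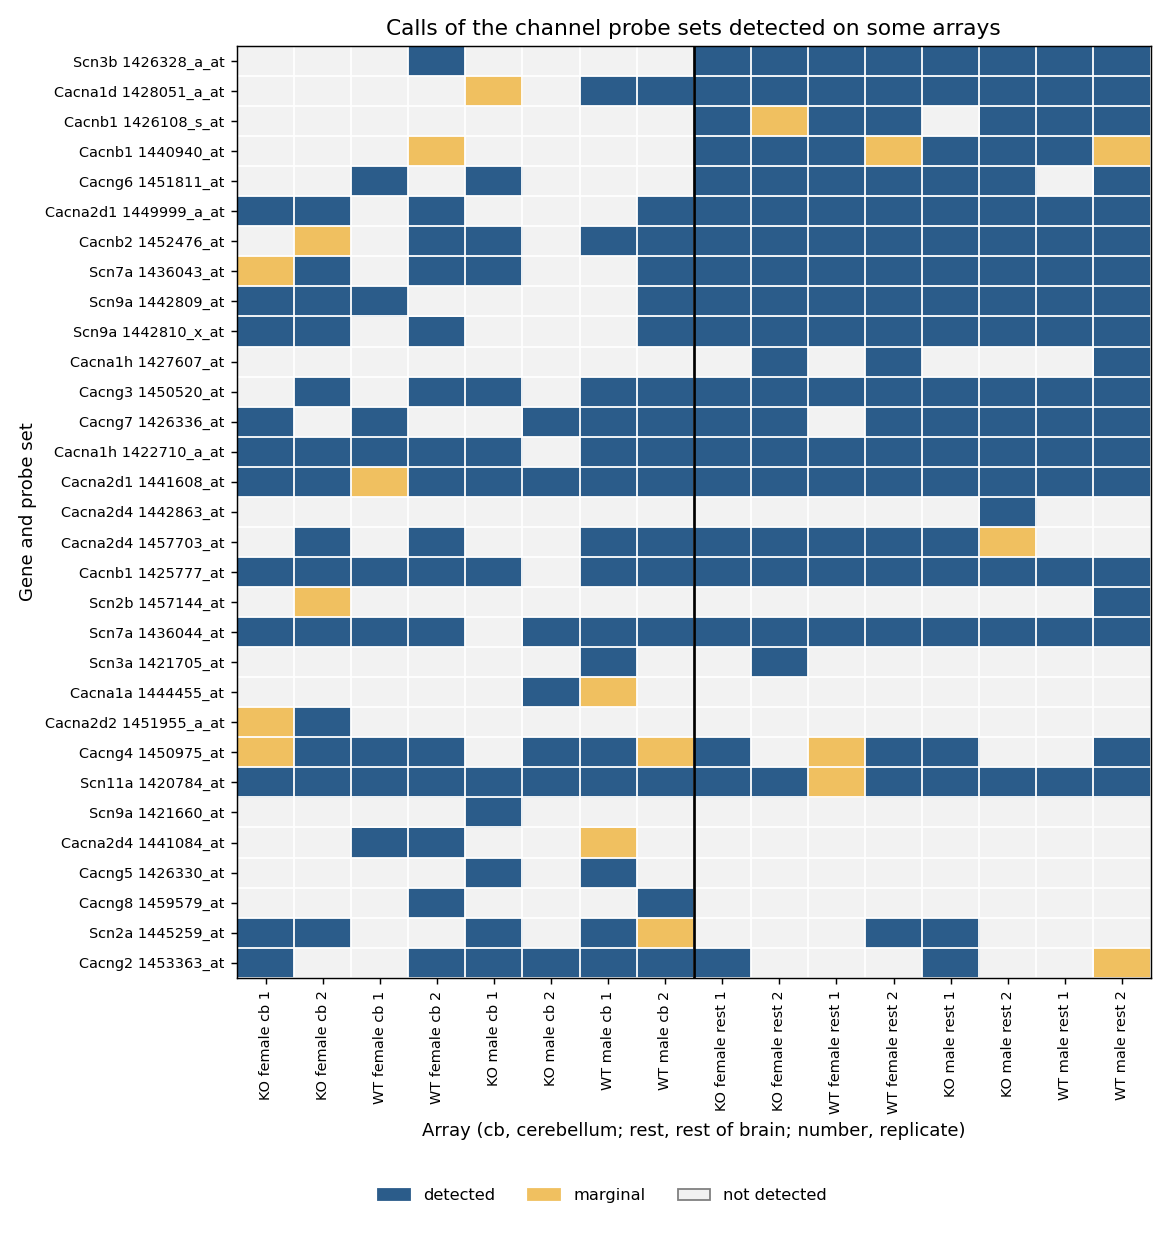
Calls of the 31 channel probe sets detected on some arrays (vertical axis, gene and probe set) on each of the 16 arrays (horizontal axis, cerebellum left of the line and rest of brain right of it), with blue for detected, yellow for marginal and light grey for not detected. The first rows, from Scn3b to Cacng6, are mostly grey on the left and blue on the right, and the 2 arrays of a group often differ in the cerebellum.

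Partners of the channels were taken as 3 lists. Of 41 probe sets of 14 sodium channel partners, among them the anchor ankyrin G (Ank3), 35 were detected on all 16 arrays. One of them could reach an exact p under 0.05 between the brain parts and was called, 1418498_at of Fgf13, an intracellular fibroblast growth factor that binds the channel tail. It was detected on 0 of 8 cerebellum arrays and 8 of 8 rest-of-brain arrays (adjusted p = 0.0043 over the 3873 probe sets and 0.0501 over all, Fisher's exact test), while 1418497_at of the same gene was detected on all 16. For 15 genes of calcium channel partners, 13 of 25 probe sets were on all 16 arrays, and 1 of 2 that could reach an exact p under 0.05 was called. This was 1426063_a_at of Gem, a small GTPase that binds calcium channel β subunits, on 0 of 8 cerebellum and 8 of 8 rest-of-brain arrays with the same p-values. The other was 1418957_at of Stac, an adaptor of calcium channels, on 7 of 8 cerebellum and 2 of 8 rest-of-brain arrays (adjusted p = 0.126, Fisher's exact test). Of 18 probe sets of AMPA receptor subunits and partners, with which the TARPs work, 14 were on all 16 arrays and 0 were called, either with or without the second adjustment. Between KO and WT mice 0 of the probe sets of these 3 lists were called.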

How the data were processed

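The authors hybridized RNA from 16 samples and, per the methods and the submitters' processing notes, processed the arrays with Expression Console and MAS5. The results section of the study speaks of RMA and LSTNR. A human array is named in the methods, but the probe sets carry mouse array names. The values that the authors deposited, 45101 probe sets on 16 arrays, are 5 distinct numbers without a stated unit, read here as 4-byte numbers whose first byte is 2 (detected, above 5e-38), 1 (marginal), 0, -1 or -2 (not detected). No intensity scale is known, and precision is limited by how many arrays there are.

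Gene symbols came from the platform annotation, in which 34958 probe sets have 1 symbol, 932 several and 9211 none. Groups came from the sample titles. Each probe set was tested between 8 and 8 arrays with Fisher's exact test, two-sided, with Benjamini-Hochberg adjustment at 0.05 over all 45101 probe sets, and a second time over the 3873 that can reach an exact p under 0.05. Groups of 2 and 4 were described by complete switches. Named are channel probe sets that switched, were called, or differed by 5 or more of 8 arrays between brain parts or 3 or more between genotypes, and every gene is counted. The probe sets in the paragraphs on weaker or opposite brain part differences, and Stac, were named after their calls were seen. The channel genes, the 12 marker and 3 partner lists and the tests were chosen with earlier results of these data known. Alternatives were marginal values as detected, levels below 0 left out, calls by gene, no _s_at or _x_at probe sets, each array left out, a replicate block and permutation within sex and the other factor. The tests were tested on simulated calls. Software was scipy 1.17.1, numpy 2.4.6, pandas 2.3.3 and, for plots, matplotlib 3.10.9, under Python 3.11.15.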

Additional observations from a re-analysis of the deposited data

Results flagged for a closer look

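Among the 4 WT cerebellum arrays, the lowest, WT female replicate 1, detected 57.6% of the channel probe sets (49 of 85), far below the other 3, which lay between 64.7% and 65.9%. Its gap to them took up most of the range of the group. About 1 in 20 groups shows such a gap by chance, and this was the only one found at the 12 ends of 6 sets of arrays examined. Over all probe sets it did not stand apart, with 26891 detected, against 26745 on WT female replicate 2 and 27204 and 26368 on WT male replicates 1 and 2. The WT female pair disagreed on 13 channel probe sets, and the other array of the pair is the one with more forebrain markers detected.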

How the results depend on the processing

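Between the brain parts, the count over all 45101 probe sets was 0 under each alternative except without WT female cerebellum replicate 2, where it was 1. That was the Scn3b probe set that no other cerebellum array detected. The second adjustment called 4 channel probe sets, 0 when calls were taken by gene and 1 (Scn3b) with permutation within sex and genotype. Leaving out each array gave 0 to 1 over all probe sets and 4 to 5 with the second adjustment, and between KO and WT 0 to 0 for both. Complete switches were fragile. By gene, brain part switches numbered 0 in KO and 0 in WT mice, and genotype switches 0 for female cerebellum, 1 for male cerebellum and 1 for male rest-of-brain arrays, both in males from Cacna2d4. Counting marginal values as detected gave 1 for male cerebellum and 1 for male rest-of-brain arrays. Without _s_at and _x_at probe sets, WT mice had 0 brain part switches. With 1 array left out, brain part switches ranged from 0 to 1 over all arrays, 3 to 5 in KO mice and 1 to 2 in WT mice. Genotype switches then ranged from 3 to 6 for cerebellum and 1 to 2 for rest-of-brain arrays of females, and from 3 to 7 for cerebellum and 1 to 4 for rest-of-brain arrays of males, as a lone array cannot disagree with a second one. Of the results for single probe sets under the other alternatives, 19 kept their direction and side of the threshold, and 4, for Cacna1d and Cacnb1, no longer passed it. No probe set carried several symbols of which 1 is a channel gene, so that alternative gave no value.

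Replicate numbers were not taken as pairs in the main tests. The difference between replicates 1 and 2 correlated between groups at -0.0181 to 0.0647 over probe sets, none above 0.1. Most calls were the same on both arrays of a group, so these values cannot show whether arrays with the same number share an animal. With the replicate number as a block, brain part called 4 of the 5 testable channel probe sets, beside 759 of the 1178 testable on the whole array. Adjusted over all probe sets it called 0, and genotype called 0.

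Calls show detection alone, so differences in level between groups that both detect a gene were not analysed here. With 2 arrays a group, a probe set tested between KO and WT within a sex and brain part cannot reach the threshold, the smallest exact p being 0.333. Which arrays share an animal is not given in the sources used here.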

Other observations

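Markers of other tissues were detected as follows in the samples that gave the channel calls. Purkinje cell markers were detected at 88.6% on cerebellum arrays and 72.2% on rest-of-brain arrays, granule cell markers at 86.9% and 56.8%, and forebrain markers at 38.6% and 84.1%. Without WT female cerebellum replicate 2 the cerebellum values were 91.6% for Purkinje cell, 89.6% for granule cell and 35.7% for forebrain markers. Hindbrain markers stood at a mean of 26% in the cerebellum and 17.5% elsewhere, but the medians, 10% and 20%, went the other way. Single cerebellum arrays ranged from 8% to 60%, the high values being from females. Thalamus and midbrain markers stood at 67.4% and 82.1%. Skeletal muscle markers were detected at 18.4% on cerebellum arrays and 21.3% on rest-of-brain arrays, sensory ganglion markers at 14.8% and 25%, and photoreceptor markers at 1.56% and 3.12%. Among glia and other cells, oligodendrocyte markers were detected at 94.4% on cerebellum arrays and 95% on rest-of-brain arrays, astrocyte and Bergmann glia markers at 75.5% and 78.3%, microglia markers at 83.3% and 90.3%, and choroid plexus markers at 71.2% and 88.8%. Their part in the channel calls was not tested.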
